A study of Mus musculus with 10 samples.

Results

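The photoreceptor transcription factors examined here are 10 genes that direct or maintain the identity of rods and cones: Crx, Otx2, Nrl, Nr2e3, Rorb, Thrb, Neurod1, Prdm1, Mef2c and Esrrb. They were taken by symbol from a table of 57010 genes, and each symbol matched 1 row. All 10 passed the filter on low counts and were tested, among 15539 genes tested in all. RNA came from whole retinas of 10 mice aged 6 to 8 weeks, collected 14 days after a vector was placed in the vitreous. In each group 5 mice received green fluorescent protein (GFP), delivered by the adeno-associated virus capsid AAV2 (AAV2-GFP) or by the capsid AAV206 (AAV206-GFP). All 10 mice therefore carried the same reporter, given by the same route. The sources used here give no strain, sex, dose or promoter, and no untreated retina was analysed here. Each difference therefore lies between the 2 vectors. With dose and promoter not given, the part of the capsid alone in any difference cannot be told apart.

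Photoreceptor fate is set by a short chain of regulators. Otx2, a homeodomain protein, acts first and activates Crx, its close relative, which then drives most photoreceptor genes for life. Rorb and Otx2 lead to Nrl, the leucine zipper factor that makes a precursor a rod, and Nrl activates Nr2e3, an orphan nuclear receptor that promotes rod genes and represses cone genes. Thrb, a thyroid hormone receptor, is needed for cones of the medium-wavelength opsin, and the bHLH factor Neurod1 maintains photoreceptors and Thrb expression. Prdm1 (Blimp1) steers precursors away from the bipolar fate, while Mef2c and the orphan receptor Esrrb act in the mature photoreceptor. Several of these genes are also used elsewhere: Otx2 and Crx in bipolar cells, Otx2 in the retinal pigment epithelium (RPE), Neurod1 and Rorb in inner retinal neurons, and Mef2c in microglia and vessels. In whole tissue, fewer cells of a type and less RNA per cell cannot be told apart.

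Start regions are shown for the autoregulated Crx and for the pair of factors called different in the fit to all 10 libraries. Of that pair, Nr2e3 lost the call in most fits without a library. Start regions are also shown for genes that the factors act on and that moved in opposite directions. Each window holds the 250 bases before the RefSeq start on the gene's own strand (GRCm38.p6). Capitals mark TAATCC, the core bound by Crx and Otx2, or TGCTGA, the core bound by Nrl, on either strand. The windows lie at chr7:15879956-15880205 (minus strand) for Crx, chr2:79456637-79456886 (minus) for Neurod1, chr9:59950080-59950329 (minus) for Nr2e3, chr3:30746043-30746292 (plus) for Samd7 and chr6:3993758-3994007 (plus) for Gngt1. Samd7 encodes a polycomb-associated repressor of photoreceptors and Gngt1 the rod transducin gamma subunit.
Crx: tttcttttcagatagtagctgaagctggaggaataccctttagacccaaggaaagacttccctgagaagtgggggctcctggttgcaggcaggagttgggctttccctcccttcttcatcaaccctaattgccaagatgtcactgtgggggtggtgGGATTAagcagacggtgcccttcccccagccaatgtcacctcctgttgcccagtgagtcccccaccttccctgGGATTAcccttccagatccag
Neurod1: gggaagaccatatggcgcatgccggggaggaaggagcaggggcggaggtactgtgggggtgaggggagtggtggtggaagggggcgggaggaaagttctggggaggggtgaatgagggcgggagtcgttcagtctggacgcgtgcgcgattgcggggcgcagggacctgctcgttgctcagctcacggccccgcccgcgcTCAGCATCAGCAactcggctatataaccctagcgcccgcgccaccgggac
Nr2e3: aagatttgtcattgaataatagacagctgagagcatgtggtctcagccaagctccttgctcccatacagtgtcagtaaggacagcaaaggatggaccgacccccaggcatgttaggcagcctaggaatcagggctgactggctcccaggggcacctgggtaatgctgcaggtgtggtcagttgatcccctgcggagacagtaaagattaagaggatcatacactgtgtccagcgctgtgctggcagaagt
Samd7: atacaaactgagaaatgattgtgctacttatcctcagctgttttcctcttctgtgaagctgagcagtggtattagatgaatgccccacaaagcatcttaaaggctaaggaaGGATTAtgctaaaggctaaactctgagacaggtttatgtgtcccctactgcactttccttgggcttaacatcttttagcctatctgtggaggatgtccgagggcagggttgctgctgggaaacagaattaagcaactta
Gngt1: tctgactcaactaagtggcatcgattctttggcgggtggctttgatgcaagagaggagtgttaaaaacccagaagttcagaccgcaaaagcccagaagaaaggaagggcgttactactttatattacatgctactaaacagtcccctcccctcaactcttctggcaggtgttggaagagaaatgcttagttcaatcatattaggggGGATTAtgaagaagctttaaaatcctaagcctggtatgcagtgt
The Crx window holds 2 TAATCC matches, which begin 94 and 21 bases before the start. Neurod1 holds 2 abutting TGCTGA matches, 50 and 44 bases before the start, and no TAATCC. Samd7 has 1 TAATCC match at 139 bases and Gngt1 has 1 at 44 bases. The Nr2e3 window holds neither run of letters. All 10 factors had a RefSeq window, 18 in total. TAATCC occurred in 3 of the 18, belonging to Crx, Otx2 and Thrb, against 6.25% of 32851 windows of all genes. TGCTGA occurred in 4 of the 18, against 16.1% of all windows. A match describes the letters and is not evidence of binding.

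The factors spanned a wide range of abundance. Per length, the level was CPM, the count scaled to the adjusted library size, divided by the exon length in kilobases. On this scale Nrl stood at 335 ± 12.7 and Crx at 331 ± 6.99 with AAV2-GFP (SD, n = 5), and these neighbours in the order overlapped. Neurod1 (199 ± 7.78) and Nr2e3 (193 ± 16.3) followed and also overlapped. Esrrb was at 99.9 ± 8.09, Otx2 at 47.5 ± 1.09 and Rorb at 29.5 ± 1.06, each clear of the gene above and below. Thrb (10.5 ± 1.51) and Mef2c (9.15 ± 1.02) overlapped, and Prdm1 was lowest at 3.88 ± 0.466. With AAV206-GFP 2 pairs of neighbours traded places: Crx (349 ± 11.8) stood above Nrl (308 ± 24.8), with overlap, and Nr2e3 (230 ± 24.5) stood above Neurod1 (168 ± 12.4), without overlap. The lower 6 places were as before. Exon lengths are unions over all annotated transcripts, so a gene expressed as a short isoform is placed too low.

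**Figure D1:**
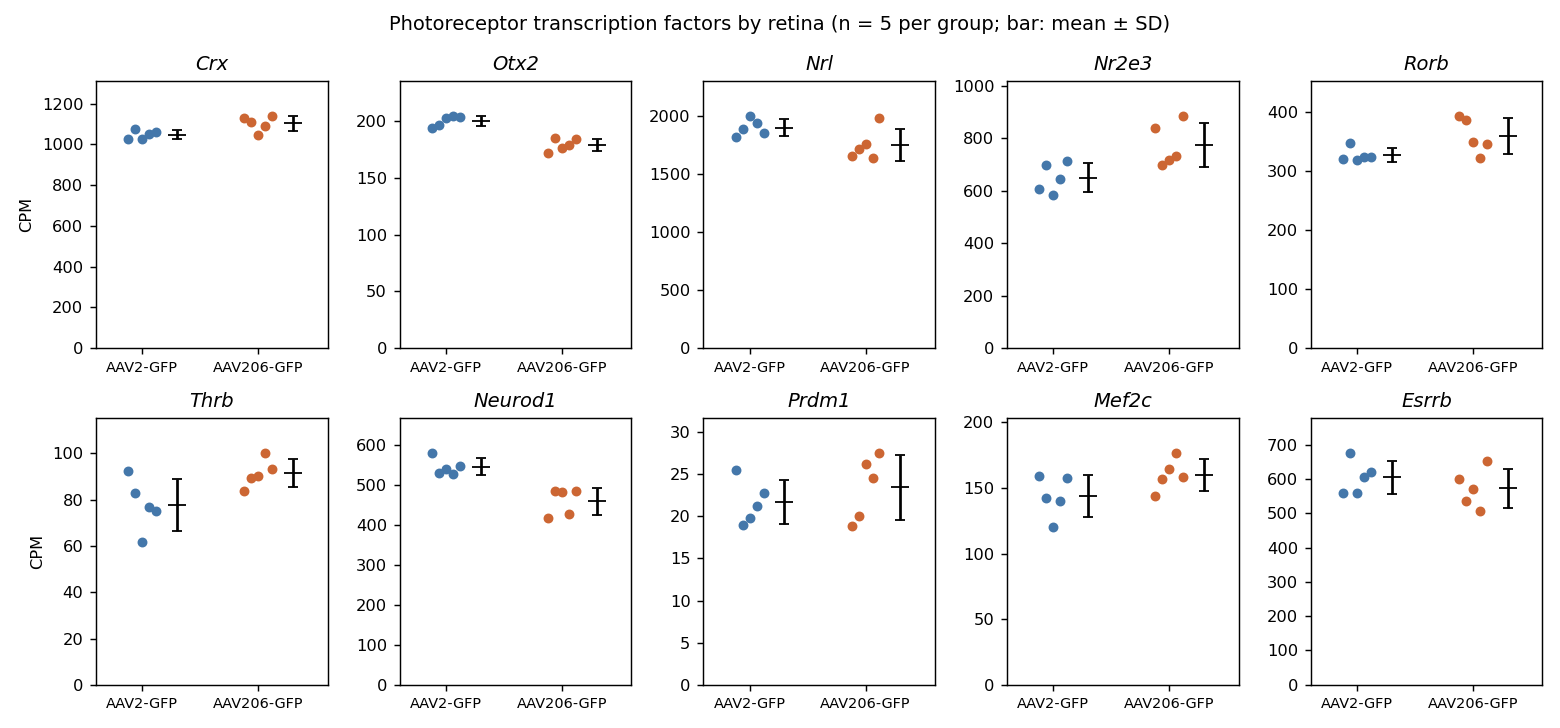
Each panel shows the CPM of 1 factor in each retina (points, left to right in replicate order) with the group mean ± SD as a bar, n = 5 per group; axes start at 0. Neurod1 and Otx2 are the genes whose groups do not overlap, with lower values under AAV206-GFP.

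Of the 10 factors, 1 rose and 1 fell with AAV206-GFP, and 8 did not pass the test. The test was edgeR's quasi-likelihood F test over all genes, at a Benjamini-Hochberg adjusted p under 0.05. By the same rule 11.2% of all tested genes were called, 5.95% higher and 5.3% lower. The median log2 fold change was 0.09 over the 10 factors and -0.0095 over all tested genes, and the median absolute value was 0.15 against 0.16. At an unadjusted p under 0.05 there were 5 of the 10 factors, where 28% of all genes lay, and in 2 of the 10 the groups did not overlap, against 9.78% of all genes. The log2 fold change was above 0 for 6 of the 10, against 48.2% of all genes.

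Neurod1 (ENSMUSG00000034701) was the factor that fell. Its level was 580, 530, 538, 527 and 546 CPM in the AAV2-GFP retinas in replicate order and 417, 483, 482, 427 and 485 CPM in the AAV206-GFP retinas. Every AAV206-GFP retina lay under every AAV2-GFP retina, and AAV206-GFP replicates 1 and 4 were the lowest. On the log2 scale the change was -0.25 ± 0.06 (standard error; edgeR adjusted p = 0.0166), so the level fell by 15.7%. The call ended when AAV2-GFP replicates 1 and 4, whose summed interferon-stimulated genes were the highest of all retinas, were both left out (log2 fold change -0.24, edgeR adjusted p = 0.0736) and when a trend with transcript length was removed (-0.17, edgeR adjusted p = 0.0776). Neurod1 lies at chr2:79452521-79456751 (minus strand, GRCm38), wholly within the span of Cerkl, a gene of retinal degeneration on the same strand, and shares 201 exonic bases with it. Cerkl moved the other way, from 29.1 ± 6.34 to 41.1 ± 7.63 CPM (SD, n = 5), which is 0.50 on the log2 scale (edgeR adjusted p = 0.0408). On the opposite strand, Neurod1 shares 154 exonic bases with the non-coding Gm26755, for which no level was available. Neurod1 carried decimals in 2 libraries, a mark of reads divided with another gene. Its level is therefore uncertain by an amount that the decimals do not give.

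The relatives of Neurod1 that share its bHLH domain gave values of the same sign. Neurod2, found in amacrine cells, had a log2 fold change of -0.43 (edgeR adjusted p = 0.0509) and Neurod4, found in bipolar cells, had -0.20 (edgeR adjusted p = 0.361). Neither passed, and both were singled out after their values were seen.

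Nr2e3 (ENSMUSG00000032292) was the factor that rose. It stood at 608, 696, 585, 645 and 713 CPM in the AAV2-GFP retinas and at 840, 699.6, 717, 731 and 885 CPM in the AAV206-GFP retinas. AAV206-GFP replicates 1 and 5 were well above the others, and AAV206-GFP replicate 2 lay below AAV2-GFP replicate 5, so the groups overlapped. On the log2 scale the change was 0.25 ± 0.08 (standard error; edgeR adjusted p = 0.0446), an increase of 19.2%. Leaving out single libraries ended the call in 7 of 10 fits, those without AAV2-GFP replicate 1, 3 or 4 or AAV206-GFP replicate 1, 3, 4 or 5, with edgeR adjusted p from 0.0531 to 0.0946 and log2 fold changes from 0.20 to 0.28. Without AAV2-GFP replicates 1 and 4 together it was 0.21 (edgeR adjusted p = 0.185). Nor did it pass with limma-voom sample weights, at 0.19 (adjusted p = 0.0851), or without the filter on low counts, at 0.25 (edgeR adjusted p = 0.0513). With the length trend removed the value was 0.30 (edgeR adjusted p = 0.0197).

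Nrl (ENSMUSG00000040632), which lies upstream of Nr2e3, had the opposite sign and did not pass. Its AAV2-GFP values were 1820, 1894, 2005, 1944 and 1859 CPM, and its AAV206-GFP values were 1657, 1719, 1763, 1637 and 1989 CPM. AAV206-GFP replicate 5 was the 1 retina of its group inside the AAV2-GFP range. Its log2 fold change was -0.12 with a 95% interval of -0.24 to 0.0046 (edgeR adjusted p = 0.194). Without AAV206-GFP replicate 5 it was -0.17 and passed (edgeR adjusted p = 0.0475).

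Otx2 (ENSMUSG00000021848) showed no overlap but narrowly missed the threshold. It measured 194, 197, 203, 205 and 204 CPM with AAV2-GFP and 172, 185, 177, 179 and 184 CPM with AAV206-GFP. The spread within each group was small, and each AAV206-GFP retina lay below each AAV2-GFP retina. Its log2 fold change was -0.16 with a 95% interval of -0.27 to -0.05 (edgeR adjusted p = 0.0568). It passed with DESeq2 (adjusted p = 0.00817), with library-size scaling in edgeR (adjusted p = 0.0473) and with limma-voom sample weights (adjusted p = 0.0325). Otx2os1, the non-coding RNA that runs opposite to Otx2 and shares 154 exonic bases with it, rose from 17.0 ± 1.45 to 23.0 ± 1.39 CPM (SD, n = 5), which is 0.43 on the log2 scale (edgeR adjusted p = 0.00606). The kit named in the sources is not described as strand-specific, so how reads in the shared bases were assigned between strands is not known. Gm49154, on the same strand as Otx2, shares 168 exonic bases with it and averaged 6.78 CPM over all libraries. Gm49154 had the sign of Otx2, at -0.50 on the log2 scale, and did not pass (edgeR adjusted p = 0.0645). Otx2 carried decimals in 1 library.

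Cells that use Otx2 outside the photoreceptors were measured by their markers. Of 16 RPE markers 11 were tested, and 1 (Rgr, an opsin of RPE and Müller glia) was lower and none higher. Their summed level ran from 56.8 to 95.2 CPM with AAV2-GFP and from 63.0 to 91.7 CPM with AAV206-GFP. Much of that sum was the keratin Krt18, at 32.3 ± 3.07 and 41.6 ± 11.5 CPM (SD, n = 5), a difference of 0.36 on the log2 scale that missed the threshold (edgeR adjusted p = 0.118). Over the 11 markers the median log2 fold change was -0.38, the sign of Otx2, and 4 had positive values; their part in the Otx2 values was not tested. Rpe65, the RPE isomerase, was near 0 at 1.75 ± 0.975 and 1.35 ± 0.677 CPM (SD, n = 5), beside about 200.5 CPM of Otx2 with AAV2-GFP. Of 16 bipolar markers 2 were lower, Grm6 and Scgn, and none higher. Their summed level was 1156 to 1647 CPM with AAV2-GFP and 1029 to 1655 CPM with AAV206-GFP. Beside the counts of both lists, 5.3% of all tested genes were called lower. The part of bipolar cells in the Otx2 values was not tested.

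Crx (ENSMUSG00000041578) was steady across retinas. It read 1025, 1075, 1025, 1051 and 1061 CPM with AAV2-GFP and 1128, 1111, 1045, 1089 and 1139 CPM with AAV206-GFP. Of the AAV206-GFP retinas 1, replicate 3, lay inside the AAV2-GFP range. The log2 fold change was 0.07 with a 95% interval of -0.03 to 0.18 (edgeR adjusted p = 0.329), which leaves room for an increase of up to that size.

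**Figure D2:**
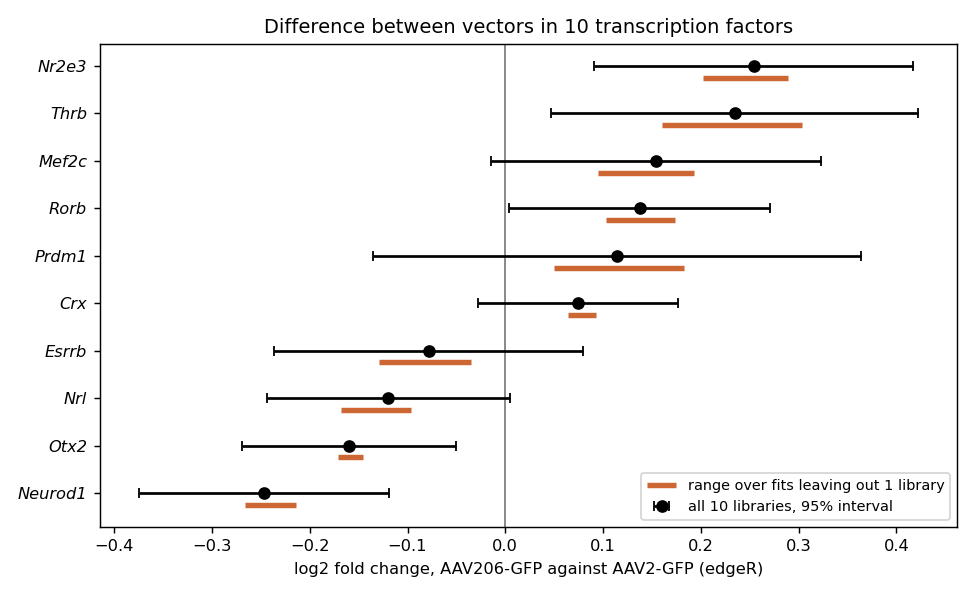
Black points are the edgeR log2 fold changes of the 10 factors, AAV206-GFP against AAV2-GFP, with 95% intervals as bars; orange lines give the range over the 10 fits that each leave out 1 library. The values run from -0.25 for Neurod1 to 0.25 for Nr2e3, and no factor changes sign when a library is left out.

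Ratios within a library do not depend on scaling between libraries, and were formed for 3 pairs in which expression of the former gene is known to depend on the latter. The pairs were chosen with the levels known, so the ratios are given as description with no test. The Crx count was 5.05 to 5.46 times the Otx2 count with AAV2-GFP and 5.92 to 6.55 times with AAV206-GFP. Nr2e3 was 0.292 to 0.383 of Nrl with AAV2-GFP and 0.407 to 0.507 of Nrl with AAV206-GFP. Thrb was 0.115 to 0.159 of Neurod1 with AAV2-GFP and 0.185 to 0.235 of Neurod1 with AAV206-GFP. In all 3 pairs the ranges were apart, with group means that differed 1.176-fold, 1.296-fold and 1.407-fold. In each pair the former gene had a positive log2 fold change and the latter a negative one. The ratios therefore restate differences given gene by gene. The share of other gene pairs with ranges apart was not computed. These are ratios of counts, not of levels per length. A trend with transcript length that differs between libraries does not cancel in them. With that trend removed, Thrb was at 0.19 and Neurod1 at -0.17 on the log2 scale, against 0.23 and -0.25 before.

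**Figure D3:**
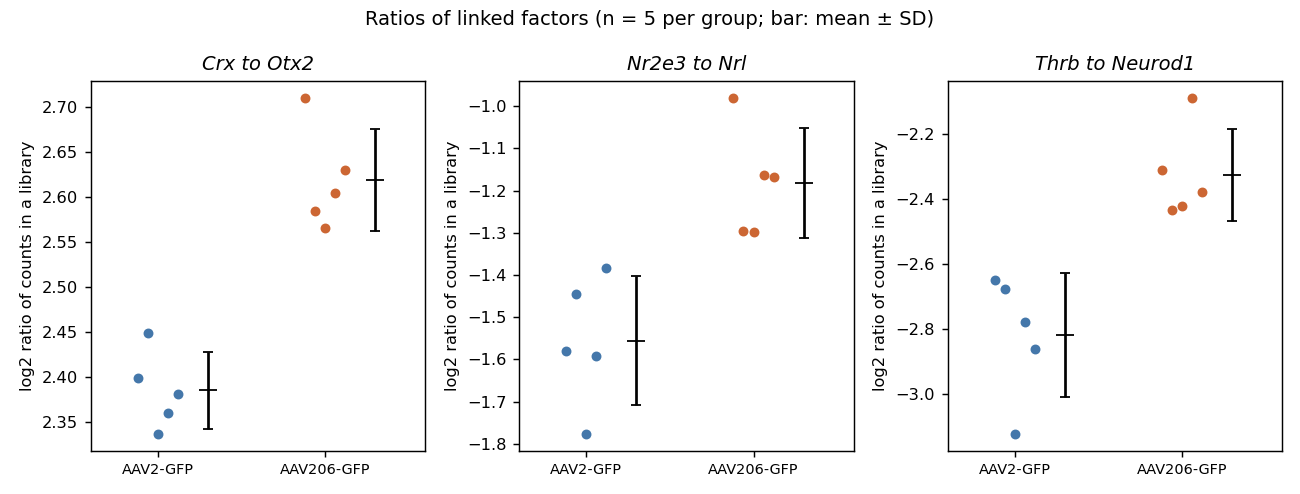
Points are the log2 ratio of the counts of 2 factors in each retina, in replicate order, with the group mean ± SD as a bar, n = 5 per group. The axes do not start at 0 and differ between panels; in each panel the AAV206-GFP points lie above the AAV2-GFP points.

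The remaining nuclear receptors gave positive or negative values that did not pass. Thrb (ENSMUSG00000021779) measured 92.3, 82.7, 61.7, 76.8 and 75.1 CPM with AAV2-GFP and 84.0, 89.3, 90.0, 100.4 and 93.3 CPM with AAV206-GFP. AAV2-GFP replicate 3 was lowest and AAV206-GFP replicate 4 highest, and AAV2-GFP replicate 1 lay among the AAV206-GFP values. Its estimated log2 fold change was 0.23 with a 95% interval of 0.05 to 0.42 (edgeR adjusted p = 0.0966). Without AAV2-GFP replicate 1 it was 0.30 and passed (edgeR adjusted p = 0.0266), and with limma-voom sample weights it was 0.23 and passed (adjusted p = 0.0498). Counts per gene do not separate the cone isoform of Thrb from the isoform made in many cells.

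Rorb (ENSMUSG00000036192), the retinoid-related orphan receptor upstream of Nrl, read 319.7, 347, 319, 324 and 323 CPM with AAV2-GFP and 393, 387, 349, 322 and 345 CPM with AAV206-GFP. AAV2-GFP replicate 2 stood above its group, and AAV206-GFP replicates 1 and 2 were the highest of all. The log2 fold change was 0.14 with a 95% interval of 0.0042 to 0.27 (edgeR adjusted p = 0.165). Its relative Rora, singled out after its value was seen, had a log2 fold change of 0.25 (edgeR adjusted p = 0.0594). Receptors of this family bind the same elements as clock proteins, and the hour of collection is not given in the sources used here. Of 16 clock genes 4 were higher (Cry1, Cry2, Per3 and Npas2) and none lower, where 5.95% of all tested genes were called higher. Their median log2 fold change was 0.12, and 12 had positive values. The clock genes Nr1d1, at -0.06 (edgeR adjusted p = 0.618), and Nr1d2, at -0.01 (edgeR adjusted p = 0.914), did not pass. The part of clock genes in the Rorb values was not tested.

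Esrrb (ENSMUSG00000021255), a receptor of rod energy metabolism, ran from 559 to 677 CPM with a median of 606 with AAV2-GFP and from 505 to 653 CPM with a median of 569.7 with AAV206-GFP. The groups overlapped through most of their range. The log2 fold change was -0.08 with a 95% interval of -0.24 to 0.08 (edgeR adjusted p = 0.523).

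Mef2c and Prdm1 had the lowest levels per length. Mef2c (ENSMUSG00000005583) measured 159, 142, 120.0, 139.9 and 158 CPM with AAV2-GFP and 143.5, 157, 164, 177 and 158 CPM with AAV206-GFP. As for Thrb, AAV2-GFP replicate 3 was lowest and AAV206-GFP replicate 4 highest. Its estimated log2 fold change was 0.15 with a 95% interval of -0.01 to 0.32 (edgeR adjusted p = 0.217).

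Prdm1 (ENSMUSG00000038151) measured 25.5, 19.0, 19.8, 21.2 and 22.8 CPM with AAV2-GFP and 18.8, 19.98, 26.2, 24.5 and 27.6 CPM with AAV206-GFP. The groups overlapped almost entirely, on 211 to 325 counts a library. The log2 fold change was 0.11 with a 95% interval of -0.14 to 0.36 (edgeR adjusted p = 0.563).

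Markers of immune cells, in which Mef2c and Prdm1 are also used, varied between retinas. The summed level of 14 microglia and macrophage markers was 432 CPM in AAV2-GFP replicate 1, against 54.1 to 93.2 CPM in the others of its group and 47.2 to 57.0 CPM with AAV206-GFP. The sum of 15 lymphocyte markers was 37.2 CPM in that retina and at most 2.34 CPM in all others. That retina had the highest Prdm1, Mef2c, Thrb and Neurod1 values of its group. Without it the log2 fold change of Prdm1 was 0.18 and that of Mef2c 0.19, and neither passed; the part of immune cells was not tested.

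The difference between vectors varied with transcript length, as did several factors. Over 13578 coding genes split into 5 equal bins by exon length, the median log2 fold change was -0.14 in the shortest bin, then -0.06, -0.02 and 0.02, and 0.08 in the longest. An index per retina, the median log2 deviation of the shortest bin minus that of the longest, was -0.0052, -0.05, 0.37, 0.16 and 0.01 with AAV2-GFP and -0.04, -0.11, -0.09, -0.28 and 0.00082 with AAV206-GFP. The difference was -0.20 (exact permutation test, two-sided, p = 0.0397), chosen after the data were seen. It missed 0.05 in 7 of the 10 analyses without a library, and was -0.13 without AAV2-GFP replicate 3 (exact permutation p = 0.0794). AAV2-GFP replicate 3 and AAV206-GFP replicate 4, at the ends of this index, were also the ends of the Thrb and Mef2c values. Thrb (7403 bases of exon), Rorb (11076) and Mef2c (15715) are long and had positive values, and Neurod1 is short (2729) with a negative one, whereas Nr2e3 (3369) and Crx (3160) are short and had positive values. With the length trend removed, Rorb was at 0.06 and Mef2c at 0.05, while Thrb was at 0.19 and Otx2 at -0.14 (none passed).

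**Figure D4:**
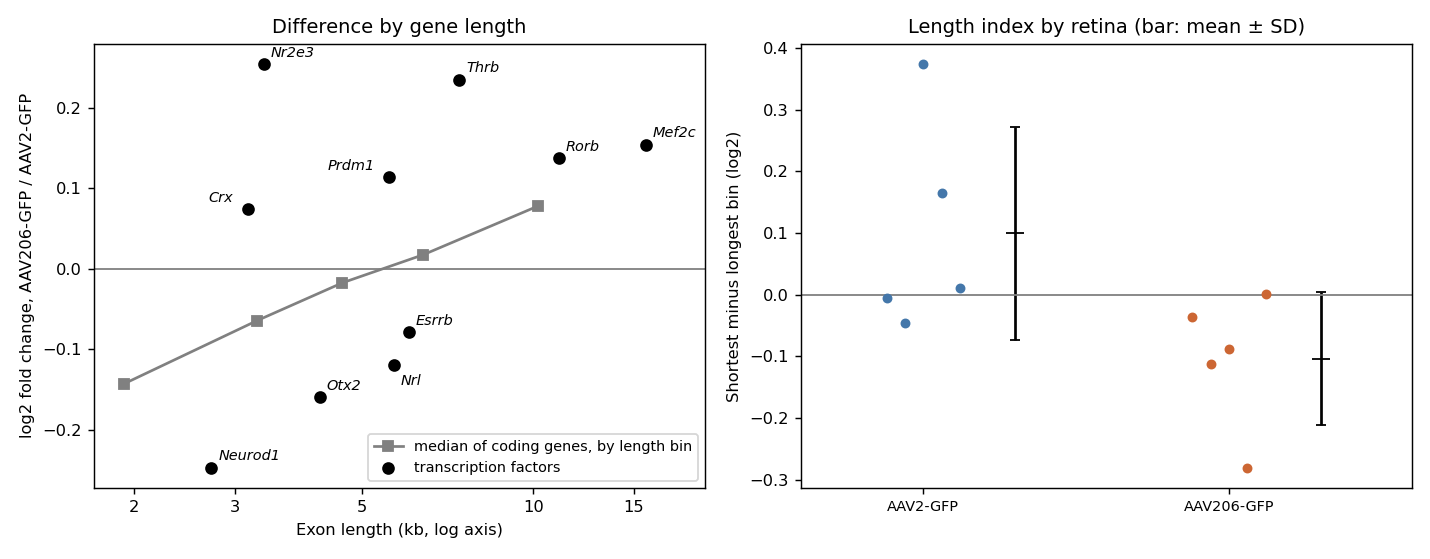
Left, the log2 fold change of each factor against exon length in kilobases (log axis), with the median of coding genes in each of 5 length bins as grey squares, which rise from -0.14 to 0.08. Right, the index of short minus long genes in each retina in replicate order, with the group mean ± SD, n = 5; AAV2-GFP replicate 3 is highest and AAV206-GFP replicate 4 lowest.

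Among 38 other regulators of photoreceptor fate, 36 were tested, of which 4 were higher and 2 lower with AAV206-GFP. Their median log2 fold change was -0.02, and over all tested genes 11.2% were called. Samd7 rose from 107 ± 3.82 to 141 ± 14.2 CPM (SD, n = 5), with a difference of 0.40 on the log2 scale (edgeR adjusted p = 0.0017). Its partner Samd11, outside the naming rule and picked for its kinship to Samd7, had 0.32 (edgeR adjusted p = 0.033), and lost the call in 4 of 10 fits without a library. Rb1, the retinoblastoma gene, rose from 60.02 ± 6.41 to 74.1 ± 6.22 CPM (log2 fold change 0.30, edgeR adjusted p = 0.0267), a call lost in 5 of those 10 fits. Samd11 carried decimals in all 10 libraries and Rb1 in 3, so the levels of both are less certain. Hes5, a Notch effector of progenitors and Müller glia, fell from 11.8 ± 1.40 to 5.85 ± 1.21 CPM (log2 fold change -1.01, edgeR adjusted p = 0.001). Nr2f1, an orphan receptor that patterns cone opsins, fell from 23.7 ± 1.38 to 17.5 ± 1.29 CPM (log2 fold change -0.44, edgeR adjusted p = 0.00451). Nr2f1, Samd7 and Hes5 were called in all 10 fits without a library.

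In the thyroid hormone and retinoid X pathway, which supplies ligand and partner to Thrb, 1 of 13 tested genes was higher and 1 lower. The median log2 fold change was -0.02, and 11.2% of all tested genes were called. Klf9, a thyroid hormone target, rose from 136 ± 9.11 to 163 ± 9.45 CPM (log2 fold change 0.26, edgeR adjusted p = 0.0174). Slco1c1, a thyroxine transporter of vessels and glia, fell from 13.2 ± 1.90 to 9.39 ± 0.808 CPM (log2 fold change -0.49, edgeR adjusted p = 0.0224), a call lost in 4 of 10 fits without a library. Rxrg, the retinoid receptor of cones, did not pass at -0.04 (edgeR adjusted p = 0.884), nor did Hr at -0.05 (edgeR adjusted p = 0.729).

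The genes on which these factors act moved both ways. Of 35 rod and general photoreceptor genes, all tested, 4 were higher, 3 lower and 28 not called. The median log2 fold change was 0.02, beside a called share of 11.2% of all tested genes. Reep6, a rod trafficking protein, rose from 1123 ± 66.7 to 1399 ± 62.1 CPM (log2 fold change 0.32, edgeR adjusted p = 0.00197). Gngt1 fell from 374 ± 51.4 to 271 ± 26.5 CPM (log2 fold change -0.47, edgeR adjusted p = 0.00387). Rcvrn (recoverin), with 1040 bases of exon, fell from 873 ± 32.5 to 734 ± 32.4 CPM (log2 fold change -0.25, edgeR adjusted p = 0.00643), and was at -0.08 and not called with the length trend removed.

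Cone genes, which Nr2e3 represses in rods and Thrb helps to select, were likewise mixed. Of 10 genes 2 were higher and 1 lower, against 11.2% of all tested genes called either way. The median log2 fold change was 0.07. The medium-wavelength opsin Opn1mw, the opsin that needs Thrb, rose from 87.2 ± 6.15 to 121 ± 11.3 CPM (log2 fold change 0.47, edgeR adjusted p = 0.000881). Opn1sw, the short-wavelength opsin, did not pass at 0.06 (edgeR adjusted p = 0.514). The cone transducin subunit Gnat2 rose from 152 ± 5.39 to 179 ± 8.37 CPM (log2 fold change 0.24, edgeR adjusted p = 0.0123), while its partner Gngt2 fell from 22.0 ± 2.67 to 15.2 ± 2.18 CPM (log2 fold change -0.53, edgeR adjusted p = 0.00902).

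Genes with the profile most like a factor over the 10 retinas were sought among 10279 genes averaging 10 CPM or more, for the 4 factors with the smallest p-values. Likeness was the root mean square distance between profiles scaled to unit SD, where 0 is identical. The nearest to Neurod1 were Srpk2, Ric8b and Gm20634, at 0.207, 0.232 and 0.266. For Otx2 they were Pou4f1, Rnf145 and Ahsa1, at 0.218, 0.232 and 0.234. Nr2e3 was nearest to Supt6, Pcif1 and Tmem63b, at 0.242, 0.267 and 0.324, and Thrb to Grik3, Zfp407 and Haus6, at 0.279, 0.302 and 0.308. No other factor of the set was among these neighbours, and nearness over 10 libraries that share their vector groups is a description.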

How the data were processed

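Bulk RNA was sequenced from the retina of each of 10 mice as read pairs of 150 bases, per the labels' protocols. The authors deposited estimated counts for each gene with no scaling across libraries; STAR 2.7.10b, RSEM 1.3.1 and mm10 are named in the submitters' processing notes, and the annotation is not given in the sources used here. Decimals occurred in 5.95% of the deposited values, so the estimated counts were rounded, although the planned test had assumed that whole counts were possible. Totals ran from 10989843 to 12752604 per library, and pairs of libraries within a group differed by more than sampling noise (chi-square 3.61 to 21.3 per degree of freedom). The labels name separate mice, and reads without molecular identifiers are not independent molecules.

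Symbols came from GENCODE M21 (GRCm38), which named 91.3% of rows and 98.4% of tested genes; coordinates and exon lengths are from that annotation, which may differ from the authors' own. edgeR 4.0.16 in R 4.3.3 was fitted to all 10 libraries (filterByExpr with a minimum count of 10, TMM factors, quasi-likelihood F test, no covariates, Benjamini-Hochberg threshold 0.05). A standard error is the size of the log2 fold change over the root of its F statistic. Intervals cover 95%. The procedure was run on simulated counts with the same variability for every gene and no trend with length. Its error rates on counts like the present ones, which hold such a trend, were not measured. The replicate numbers of the 2 groups are treated as names only.

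The 10 factors and all gene lists were chosen with earlier results of these data known. Named from each of the 4 related lists were up to 4 called genes with the smallest p, and any other gene was singled out after its values were seen. Of the genes this rule chose, 1 is not reported here, although counts over lists and named genes include it. Lists are described by counts and medians. Alternatives were other scalings and filters, DESeq2 1.42.0, limma-voom (limma 3.58.1), the replicate number as a block, fits without libraries, and offsets that remove each library's lowess trend on exon length, the last chosen after seeing the data.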

Additional observations from a re-analysis of the deposited data

Results flagged for a closer look

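A retina was taken as far from its group where its gap to the nearest other, divided by the group's range, exceeded 0.71; of 62 groups of 5 examined, about 3.1 would reach this by chance and 4 did. Rorb in AAV2-GFP replicate 2 was 347 CPM against 319 to 324 CPM in the others of its group (ratio 0.829). The summed level of Müller glia markers in AAV206-GFP replicate 4 was 3176 CPM against 3696 to 3847 CPM (ratio 0.776). In AAV2-GFP replicate 1 the sum of microglia and macrophage markers was 432 CPM against 54.1 to 93.2 CPM (ratio 0.897), and that of lymphocyte markers was 37.2 CPM against 1.08 to 2.34 CPM (ratio 0.965).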

How the results depend on the processing

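Over 28 named genes and 23 alternatives, 581 of 644 single-gene refits kept their direction and side of the threshold, 57 lost the call, 6 gained it and none reversed. The count of factors past the threshold, 2, was 3 with library-size scaling, with DESeq2 and with limma-voom sample weights. It was 1 without the filter on low counts, 1 with the replicate block, 1 with length-trend offsets and 0 without AAV2-GFP replicates 1 and 4. When single libraries were left out it ranged from 1 to 2. Without AAV206-GFP replicate 5 the 2 were Neurod1 and Nrl, and without AAV2-GFP replicate 1 they were Neurod1 and Thrb. The count over all genes, 1747, was 2254 with DESeq2 and 2157 with limma-voom sample weights. It was 1085 with the replicate block and 985 without AAV2-GFP replicates 1 and 4. Without single libraries it ranged from 991 to 1912 (991 without AAV2-GFP replicate 4, 1074 and 1056 without AAV206-GFP replicates 2 and 4). The other regulators past the threshold, 6, ranged from 3 to 8 without single libraries, with 3 without AAV2-GFP replicate 3 or 4. With DESeq2 and with limma-voom sample weights their count was 9. In the thyroid list the count of 2 was 1 with the replicate block, 1 without AAV2-GFP replicates 1 and 4, and ranged from 1 to 2. The cause of these changes was not tested, though fits without libraries have fewer samples. The replicate numbers did not pair the libraries: same-numbered deviations correlated at -0.05 to 0.04, and no AAV2-GFP library was nearest to the AAV206-GFP library of its own number. With the block Neurod1 kept its call (log2 fold change -0.25, edgeR adjusted p = 0.0491) and Nr2e3 did not (0.25, edgeR adjusted p = 0.0545). Otx2, Nrl and Thrb gained the call under some alternatives, as given with their values. Prdm1, with the fewest counts, is the factor with the widest interval.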
